A study of Homo sapiens with 4 samples.

Results

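SR proteins, heterogeneous nuclear ribonucleoproteins (hnRNPs) and the CLK and SRPK kinases were followed in LN-229 cells given doxycycline to switch on WIF1. LN-229 is an established line from a human glioblastoma. The set held 42 genes, and its members were all probe sets of the array whose only gene symbol was that of a listed gene. This gave 147 probe sets for 39 genes, among 54613 probe sets and 19775 genes in all. They were 10 SR proteins (SRSF1, SRSF3 to SRSF8 and SRSF10 to SRSF12), the 5 SR-related proteins TRA2A, TRA2B, SON, SRRM1 and SRRM2, 6 kinases (CLK1 to CLK4, SRPK1 and SRPK2) and 18 hnRNPs. The other 3 genes, SRSF2, SRSF9 and HNRNPH2, were read only by probe sets that carry several gene symbols.

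The induced group was 2 cultures given doxycycline for 48 h to express WIF1, which is secreted and holds WNT ligands off their receptors. The control group was 2 cultures of the same line without doxycycline. The labels call the replicates biological and do not say whether the line is 1 clone or which promoter drives WIF1, and no array analysed here had doxycycline without WIF1, so effects of the drug and of WIF1 cannot be told apart. The only probe set of WIF1 was near the floor, at 2.93 and 3.03 in the arrays labelled induced, against 2.98 and 2.90 in those labelled control, a difference of 0.04 (SE 0.10, adjusted p = 0.911). The arrays therefore did not show the induction, and whether these probes match the induced transcript was not examined here. Induced and control name the labels throughout, and each direction rests on them. Values are log2 intensities with array medians of 6.15 to 6.19, made by RMA (robust multi-array average), differences are induced minus control with 2 arrays per group, and each gene is given by its brightest probe set unless stated otherwise. Of 9 astroglial and glioma markers 7 were no dimmer than the median probe set (6.16), while GFAP and SOX9 were below it, and FABP7, S100B and SOX2 were lower at an unadjusted p under 0.05. Of the measured markers of other cell types, 5 of 5 for neurons (MAP2 at 9.39, with MAP2 and TUBB3 lower at an unadjusted p under 0.05), 3 of 5 for epithelium (KRT18 at 11.6), 2 of 4 for endothelium, 1 of 3 for oligodendrocytes and 1 of 3 for leukocytes were no dimmer than it, while EPCAM, CDH5, MOG and PTPRC were below it. Several of those counted were little above the median probe set, with KRT5 at 6.23, SYP at 6.25, RBFOX3 at 6.45, VWF at 6.50, CD3E at 6.72 and PECAM1 at 6.91. The oligodendrocyte marker MBP, at 7.45, differed by -0.23 and was also lower at an unadjusted p under 0.05. Of all genes 4.73% were lower at such a p. The part of these markers in the results was not tested.

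In textbook terms, SR proteins bind exonic enhancers through their RNA recognition motifs and recruit the splicing machinery through arginine and serine rich tails, while many hnRNPs bind silencers and oppose them. SRPK kinases phosphorylate those tails in the cytoplasm for nuclear import, and CLK kinases phosphorylate them in the nucleus and release SR proteins from nuclear speckles. Many of these genes limit their own output by splicing in exons that carry stop codons, so that probe sets of the same gene can read different transcripts.

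The differences were small in every family. Signals were higher in the arrays labelled induced for the kinase CLK1, at 0.29 log2 units, for the SR-related TRA2A, TRA2B and SON at 0.13 to 0.19, and for the hnRNPs HNRNPH1, HNRNPD and HNRNPA2B1 at 0.09 to 0.16. They were lower for the SR proteins SRSF1 and SRSF10 and the hnRNP HNRNPM, at -0.12 to -0.09. With limma's moderated test and Benjamini-Hochberg adjustment over all 54613 probe sets, 0 member probe sets passed at an adjusted p under 0.05, as did 0% of all probe sets and 0% of all genes. Without adjustment, 14 of 147 member probe sets were higher and 10 lower at a p under 0.05 in the same test, where 4.75% and 5.27% of all probe sets stood. In 32 member probe sets both induced arrays were above both controls and in 38 both were below, against 17.9% and 23.5% of all probe sets. Adjusted p values of the 39 genes ran from 0.472 to 0.997. The smallest adjusted p of any member probe set was 0.397, for a probe set of HNRNPH1.

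By gene, 7 of 39 members were higher and 3 lower before adjustment, at a p under 0.05, that is 17.9% and 7.69%, against 6.48% and 4.73% of all genes. The higher genes were CLK1, TRA2A, TRA2B, SON, HNRNPD, HNRNPH1 and HNRNPA2B1. Most members are bright on the array and bright genes have small standard errors, so the same counts were taken over genes with a mean of at least 10. There 6 of 32 members were higher and 3 lower, 18.8% and 9.38%, against 14.1% and 6.59% of the 2760 genes of that brightness. The members' shares thus lay near those of genes equally bright. The split turned on the scaling: after centring each array on its median 8 members were higher and 0 lower, where 8.42% and 2.79% of all genes stood, and the median of all genes moved to 0.02.

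The groups did not overlap, with both induced arrays above both controls, in 9 members, and with both below in 8. Among all genes this held for 21.4% and 22.4%, and the members' 17 of 39 (43.6%) stood beside 43.9%. The median difference over the 39 members was 0.01, against 0.00 over all genes. By family it was -0.02 for SR proteins, 0.13 for SR-related proteins, 0.02 for the kinases and 0.01 for hnRNPs, with no test of the differences between families. Relative to the control mean, the SR-related median stood at 0.10 and 0.16 in the induced arrays, against 0.02 and -0.02 in the controls. The control medians mirror each other because each gene's mean of the 2 controls was subtracted. For SR proteins the medians were -0.021 and -0.030 in the induced arrays, against 0.020 and -0.020 in the controls. For kinases they were -0.01 and 0.07 in the induced arrays, against 0.004 and -0.004 in the controls. For hnRNPs these medians were 0.01 and 0.01 in the induced arrays and 0.02 and -0.02 in the controls, which overlap.

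**Figure D1:**
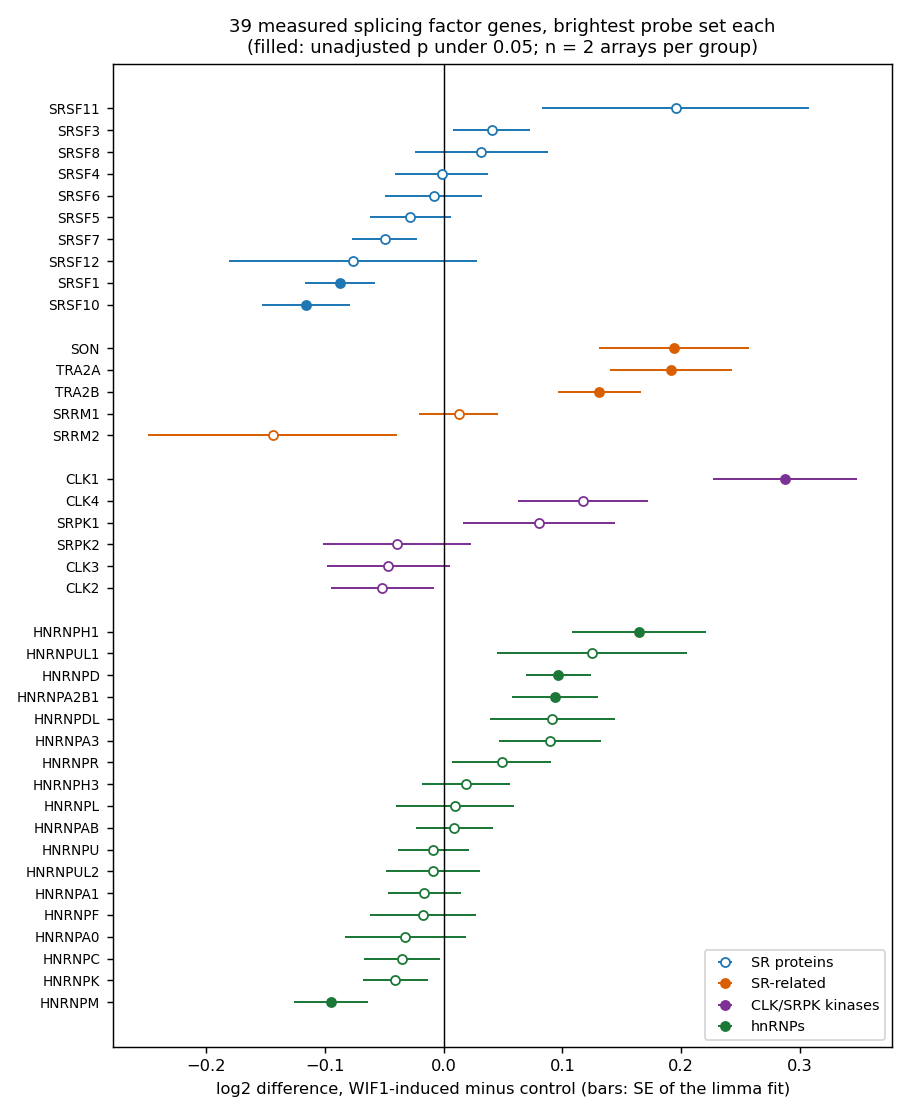
Log2 difference (horizontal axis, WIF1-induced minus control, bars are the SE of the limma fit) of the brightest probe set of each of the 39 measured members, by family, with filled points for an unadjusted p under 0.05. CLK1 lies farthest to the right at 0.29, and 7 filled points are right of 0 and 3 left of it.

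The stretches before the start sites are shown for the 3 higher and the 3 lower members of smallest p that are in the RefSeq promoter table (GRCh38.p14), to set genes that differed in opposite directions side by side. Of the 39 measured members 37 are in that table. Each stretch holds 250 bases before and 50 after the annotated start, reads 5′ to 3′ on the gene's strand, and has in capitals every match, on either strand, to any of 9 motifs. CLK1, with 2 starts listed of which the first is shown, is at chr2:200864609-200864908 (minus strand), TRA2B at chr3:185937965-185938264 (minus strand) and HNRNPD at chr4:82373942-82374241 (minus strand). SRSF10 is at chr1:23980278-23980577 (minus strand), HNRNPM at chr19:8444725-8445024 (plus strand) and SRSF1 at chr17:58007197-58007496 (minus strand).
CLK1: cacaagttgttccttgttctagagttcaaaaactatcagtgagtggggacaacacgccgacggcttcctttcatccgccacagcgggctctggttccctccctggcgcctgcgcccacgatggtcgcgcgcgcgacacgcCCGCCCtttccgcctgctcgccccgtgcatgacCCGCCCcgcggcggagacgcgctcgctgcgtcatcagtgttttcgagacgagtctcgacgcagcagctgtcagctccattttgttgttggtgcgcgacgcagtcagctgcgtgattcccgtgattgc
TRA2B: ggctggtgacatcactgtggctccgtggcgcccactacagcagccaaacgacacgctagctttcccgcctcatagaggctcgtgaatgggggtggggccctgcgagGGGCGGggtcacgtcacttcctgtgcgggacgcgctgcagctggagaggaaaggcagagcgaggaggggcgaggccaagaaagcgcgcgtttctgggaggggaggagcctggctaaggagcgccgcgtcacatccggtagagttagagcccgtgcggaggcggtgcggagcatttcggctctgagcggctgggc
HNRNPD: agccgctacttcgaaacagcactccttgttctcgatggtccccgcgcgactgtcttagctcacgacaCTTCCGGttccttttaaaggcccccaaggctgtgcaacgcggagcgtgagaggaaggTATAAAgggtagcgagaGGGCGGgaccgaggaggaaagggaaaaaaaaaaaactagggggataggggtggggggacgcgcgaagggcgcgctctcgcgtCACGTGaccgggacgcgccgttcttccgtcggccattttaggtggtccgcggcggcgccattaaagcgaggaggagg
SRSF10: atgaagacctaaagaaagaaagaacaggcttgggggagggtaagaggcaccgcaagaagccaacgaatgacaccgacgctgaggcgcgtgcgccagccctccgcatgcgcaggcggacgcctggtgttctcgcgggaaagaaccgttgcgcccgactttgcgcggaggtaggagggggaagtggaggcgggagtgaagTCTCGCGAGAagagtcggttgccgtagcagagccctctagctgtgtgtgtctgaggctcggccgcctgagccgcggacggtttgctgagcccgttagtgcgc
HNRNPM: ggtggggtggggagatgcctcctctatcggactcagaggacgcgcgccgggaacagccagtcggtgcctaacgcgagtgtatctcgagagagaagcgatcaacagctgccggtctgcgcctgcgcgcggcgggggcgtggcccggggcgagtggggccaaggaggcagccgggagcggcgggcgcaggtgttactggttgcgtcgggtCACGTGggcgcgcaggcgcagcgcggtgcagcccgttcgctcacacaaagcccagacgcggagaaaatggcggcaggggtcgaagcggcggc
SRSF1: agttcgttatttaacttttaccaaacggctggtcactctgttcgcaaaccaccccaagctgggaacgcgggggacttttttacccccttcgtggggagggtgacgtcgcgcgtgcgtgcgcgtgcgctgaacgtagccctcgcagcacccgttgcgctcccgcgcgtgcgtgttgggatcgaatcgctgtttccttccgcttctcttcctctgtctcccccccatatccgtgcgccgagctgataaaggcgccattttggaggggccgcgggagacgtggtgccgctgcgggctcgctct

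The motifs were searched as letters on both strands, and matches to different motifs were allowed to overlap. A GC box (GGGCGG) was in 27 of 37 members (73%, against 48.3% of the 27305 genes in the table) and a CCAAT box (CCAAT) in 20 (54.1%, against 39.7%). Among the members shown, the GC box was in CLK1, TRA2B and HNRNPD and in none of SRSF10, HNRNPM and SRSF1. Of all higher members in the promoter table (unadjusted p under 0.05 in limma) it was in 4 of 6, a share no larger than over all members. For SRSF10 and HNRNPM the direction depended on the probe set, as given below. The E-box CACGTG was in 8 members (21.6%, against 8.77%), among them HNRNPD and HNRNPM. The ETS core CCGGAAG was in 5 (13.5%, against 12.2%) and TATAAA in 7 (18.9%, against 14%). The cAMP response element TGACGTCA, the AP-1 site TGACTCA and the composite C/EBP-ATF element TGATGNAAT were in 0 of 37 members, against 2.25%, 6.05% and 1.22% of all genes. Median GC content was 65% over the members and 58.3% over all genes. These are matches of letters and say nothing of binding. Unlike the counts above, the genes of the promoter table were not matched to the members for brightness.

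The rarest of the motifs found was a palindrome of 10 letters, spelled by the capitals of the windows that follow and present in 3 of 37 members (8.11%) and in 138 of all genes (0.505%). The 3 were SRSF10, HNRNPK and HNRNPH3, whose differences were -0.12, -0.04 and 0.02. With 15 bases shown on each side, it begins 52, 57 and 83 bases before the annotated starts of SRSF10, HNRNPK and HNRNPH3 in that order. The windows are chr1:23980355-23980394 (minus strand), chr9:83980648-83980687 (minus strand) and chr10:68331966-68332005 (plus strand) of GRCh38.p14.
SRSF10: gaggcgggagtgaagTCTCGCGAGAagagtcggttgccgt
HNRNPK: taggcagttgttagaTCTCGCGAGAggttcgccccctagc
HNRNPH3: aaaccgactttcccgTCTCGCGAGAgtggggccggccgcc

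Among the SR proteins, 0 of 10 were higher and 2 lower before adjustment, at a p under 0.05, and 0 lower without the intensity trend of the test. Of all genes 6.48% were higher and 4.73% lower, and of genes with a mean of at least 10 it was 14.1% and 6.59%. SRSF10, which acts as a general repressor once it is dephosphorylated, stood at 11.43 and 11.39 in the induced arrays, against 11.55 and 11.50 in the controls. Its difference was -0.12 (SE 0.037, adjusted p = 0.472). SRSF1, the prototype SR protein also known as ASF/SF2, stood at 12.30 and 12.30 in the induced arrays, against 12.40 and 12.37 in the controls. Both induced arrays lay below both controls for both genes, and SRSF1 differed by -0.09 (SE 0.029, adjusted p = 0.472). Of the 8 probe sets of SRSF1, 7 pointed down, from -0.21 to -0.02, and the dim remaining 1 gave 0.03.

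SRSF7, an SR protein with a zinc knuckle that also couples to mRNA export, stood at 12.79 and 12.76 in the induced arrays, against 12.83 and 12.83 in the controls. The groups did not overlap, at a difference of -0.05 (SE 0.028, adjusted p = 0.570). SRSF11, found in nuclear speckles, stood at 10.94 and 11.00 in the induced arrays, against 10.96 and 10.58 in the controls. The second control was the low array and the groups overlapped, so that the difference of 0.20 (SE 0.11, adjusted p = 0.580) was 0.01 without it. The other 6 lay between -0.08 and 0.04. They were SRSF3 at 0.04, SRSF8 at 0.03, SRSF4 at 0.00, SRSF6 at -0.01, SRSF5 at -0.03 and SRSF12 at -0.08. SRSF12 was the dim member of the family, with a mean of 4.59. Dimmer probe sets of SRSF5, SRSF8, SRSF7 and SRSF10 stood past an unadjusted p of 0.05, at -0.31, -0.29, 0.21 and 0.26 in that order.

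Among the SR-related proteins 3 of 5 were higher at an unadjusted p under 0.05. Of all genes 6.48% stood there, and of genes with a mean of at least 10, as these 3 have, 14.1%. The count for the family changed with the method. It was 0 of 5 without the intensity trend of the test, and 0 of 5 when the probe sets of each gene were averaged. Averaging put their median at 0.03. TRA2A and TRA2B are paralogous activators of exon inclusion that bind GAA-rich enhancers. TRA2B stood at 12.74 and 12.80 in the induced arrays, against 12.67 and 12.61 in the controls, a difference of 0.13 (SE 0.035, adjusted p = 0.472). TRA2A stood at 10.99 and 11.09 in the induced arrays, against 10.90 and 10.80 in the controls, a difference of 0.19 (SE 0.052, adjusted p = 0.472). In both genes each induced array was above each control. The 4 probe sets of TRA2B gave 0.13, 0.10, 0.08 and, for the dimmest, -0.02. Those of TRA2A were divided, with 3 above 0 and 2 below, at -0.18 and -0.15.

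SON, a large protein that scaffolds nuclear speckles and is needed to splice weak introns, stood at 10.86 and 11.04 in the induced arrays, against 10.77 and 10.75 in the controls. The difference was 0.19 (SE 0.063, adjusted p = 0.472), and the second induced array was the highest of the 4. Without that array it was 0.10, and with the probe sets of the gene averaged 0.03. SRRM2, another speckle scaffold, stood at 10.01 and 9.67 in the induced arrays, against 10.004 and 9.966 in the controls. Only the second induced array was low, so the difference of -0.14 (SE 0.10, adjusted p = 0.654) became 0.03 without it. SRRM1, a coactivator that bridges SR proteins and the core machinery, differed by 0.01 (SE 0.033). The dimmer sets of SRRM2 included 1 past an unadjusted p of 0.05, at -0.24.

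Among the 6 kinases CLK1 was higher at an unadjusted p under 0.05, and 0 were lower, where 6.48% and 4.73% of all genes stood. CLK1 phosphorylates SR proteins in the nucleus and is itself spliced into a form without kinase activity. It stood at 8.44 and 8.51 in the induced arrays, against 8.23 and 8.15 in the controls. That is 1.22-fold higher, a difference of 0.29 (SE 0.060, adjusted p = 0.472), the farthest from 0 of the 39 brightest probe sets. Only 1 probe set reads CLK1, so no other could be set beside it. Over the 13 alternatives in which it was measured the difference ran from 0.25 to 0.33, and its adjusted p from 0.261 to 0.901.

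CLK4, the closest relative of CLK1, stood at 8.71 and 8.78 in the induced arrays, against 8.64 and 8.62 in the controls. The groups did not overlap, at a difference of 0.12 (SE 0.055, adjusted p = 0.527). The next probe set gave 0.14, while the dim ones gave -0.42 and -0.21. CLK2 stood at 9.97 and 10.03 in the induced arrays, against 10.05 and 10.06 in the controls, and differed by -0.05 (SE 0.043, adjusted p = 0.698). CLK3 differed by -0.05 and SRPK2 by -0.04, where the 6 sets of SRPK2 ran from -0.30 to 0.16. SRPK1, the main cytoplasmic SR protein kinase in many cells, stood at 10.31 and 10.45 in the induced arrays, against 10.36 and 10.25 in the controls. Its groups overlapped and it differed by 0.08 (SE 0.064, adjusted p = 0.682), or 0.01 without the second induced array.

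Among the 18 hnRNPs 3 were higher and 1 lower before adjustment, at a p under 0.05, and 0 and 0 without the intensity trend of the test. The shares of 16.7% and 5.56% lay near the 14.1% and 6.59% of all genes with a mean of at least 10, as all 18 have. HNRNPD (AUF1), which binds AU-rich elements and affects mRNA decay, stood at 12.79 and 12.80 in the induced arrays, against 12.71 and 12.69 in the controls, a difference of 0.10 (SE 0.027, adjusted p = 0.472). HNRNPH1, which binds runs of guanine, stood at 12.76 and 12.81 in the induced arrays, against 12.70 and 12.54 in the controls, a difference of 0.16 (SE 0.056, adjusted p = 0.472). HNRNPA2B1, an RNA transport and splicing factor, stood at 12.90 and 12.92 in the induced arrays, against 12.86 and 12.77 in the controls, a difference of 0.09 (SE 0.036, adjusted p = 0.486). In all 3 both induced arrays were above both controls. The second control was the lowest array for each of them, and without it HNRNPH1 was at 0.08 and HNRNPA2B1 at 0.05. HNRNPM was the lower member, at 11.84 and 11.82 in the induced arrays, against 11.93 and 11.91 in the controls. It differed by -0.09 (SE 0.031, adjusted p = 0.472).

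Second probe sets were in the same direction for HNRNPH1 and HNRNPA2B1. The HNRNPH1 set of smallest p among all members stood at 12.04 and 11.95 in the induced arrays, against 11.75 and 11.68 in the controls. It differed by 0.28 (SE 0.044, adjusted p = 0.397), while a dim set of the gene gave -0.32 (SE 0.18). For HNRNPA2B1 the next brightest set gave 0.15 (SE 0.039) and the dimmest -0.22. For HNRNPD the 9 sets ran from -0.19 to 0.42, the highest of them in a dim set, with 4 above 0 and 5 below. Without probe sets ending in _x_at or _s_at, HNRNPD was at -0.04 and HNRNPA2B1 at -0.01.

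The other 14 hnRNPs were not past an unadjusted p of 0.05 in their brightest probe set. HNRNPDL, a paralogue of HNRNPD, stood at 12.31 and 12.37 in the induced arrays, against 12.32 and 12.18 in the controls, and differed by 0.09 (SE 0.052, adjusted p = 0.577), or 0.02 without the second control. HNRNPUL1 was at 0.12, HNRNPA3 at 0.09, HNRNPR at 0.05, HNRNPH3 at 0.02, and HNRNPL and HNRNPAB each at 0.01. The dimmer sets of HNRNPA3 pointed down, at -0.05 and, past an unadjusted p of 0.05, at -0.11. Those of HNRNPR gave -0.18 and -0.10. HNRNPU and HNRNPUL2 were each at -0.01, HNRNPA1 and HNRNPF each at -0.02, HNRNPA0 at -0.03, HNRNPC and HNRNPK at -0.03 and -0.04. HNRNPA1 and HNRNPC, abundant proteins that bind nascent transcripts, and HNRNPK, which binds runs of cytosine, thus lay between -0.04 and -0.02 in their brightest sets. The 7 sets of HNRNPC ran from -0.29, in a dim set, to 0.12, with 4 above 0 and 3 below. Its next brightest sets gave 0.12 and 0.07. The dimmer sets gave 0.04 and 0.10 for HNRNPA1 and 0.03 for HNRNPK. HNRNPU, which also binds chromatin, pointed down in all 5 probe sets, from -0.17 to -0.01. The set at -0.17 stood at 7.90 and 7.23 in the induced arrays, against 7.79 and 7.67 in the controls. In that set and in the set at -0.08 the first induced array was above both controls, and only the second was low.

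**Figure D2:**
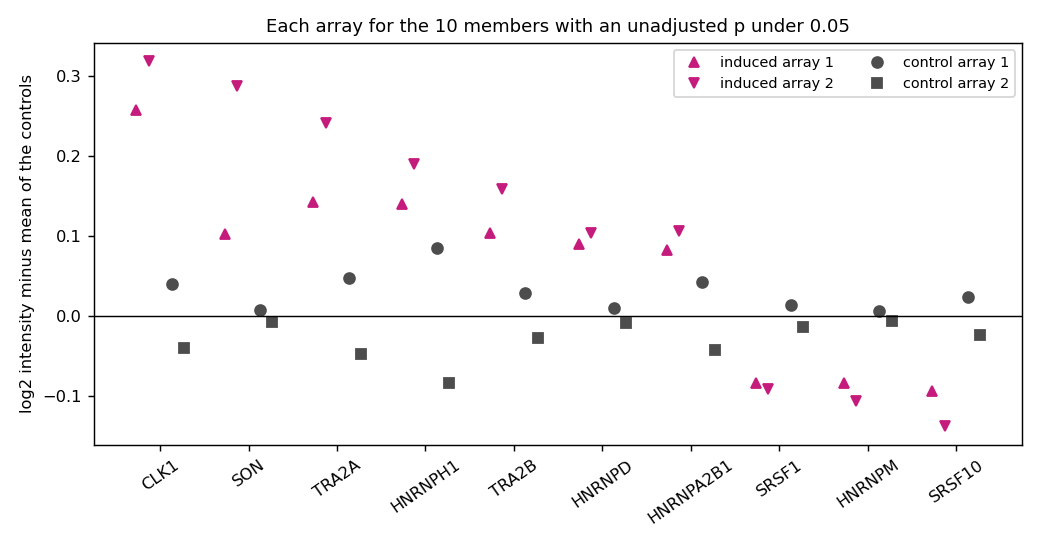
Log2 intensity minus the mean of the controls (vertical axis) in each of the 4 arrays for the 10 members with an unadjusted p under 0.05, with induced arrays as pink triangles and controls as a grey circle and square. Induced and control arrays do not overlap in these genes, and for CLK1 the induced arrays lie at least 0.2 above both controls. The genes were picked by their p in these same arrays, so the lack of overlap is no further evidence. It also held for 43.9% of all genes.

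For the genes without a probe set of their own, the sets with several symbols gave small differences. SRSF2, whose sets also name MIR636, was at 12.91 and 12.86 in the induced arrays, against 12.92 and 12.87 in the controls, in the brightest of 3 sets. It differed by -0.01, and the other sets gave 0.05 and 0.05. SRSF9, shared with GATC, stood at 12.06 and 11.95 in the induced arrays, against 11.92 and 11.91 in the controls, in the brighter set. It differed by 0.09, and the other set gave 0.08. HNRNPH2, shared with a read-through transcript, stood at 9.38 and 9.42 in the induced arrays, against 9.50 and 9.49 in the controls, and differed by -0.10. HNRNPA1 and HNRNPA3 have processed pseudogenes whose symbols share such sets, so signals of these genes and their copies may be mixed. These shared sets gave 0.01 and 0.01 for HNRNPA1 and -0.20, 0.08 and -0.06 for HNRNPA3, and a set of HNRNPUL2 shared with a read-through transcript gave -0.27.

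Of the 35 members with more than 1 probe set, 30 had sets on both sides of 0 (85.7%, against 62.3% of all such genes), and of the 12 with at least 5 sets 11 had them (91.7%, against 90% of all such genes). In 3, namely SRSF10, HNRNPM and HNRNPDL, sets stood past an unadjusted p of 0.05 in both directions, which is 8.57%, against 1.08% of the 10523 genes with more than 1 set. Since more sets give more chances, the same was counted over genes with at least 5 sets, where it held for 3 of 12 members and for 3.6% of 1335 genes. Among those with a mean of at least 10 it was 3 of 11 members (27.3%), beside 7.78% of 334 genes.

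In SRSF10 the opposite set stood at 9.20 and 9.34 in the induced arrays, against 9.09 and 8.94 in the controls. It differed by 0.26 (SE 0.074, adjusted p = 0.472), where the brightest set gave -0.12 and the other 3 lay between -0.03 and 0.02. The brightest set has the suffix _x_at, used by the manufacturer where probes may match other sequences, and the opposite set has the suffix _at, used where they are designed to match 1 transcript or gene. In HNRNPM a set nearly as bright as the first stood at 11.81 and 11.84 in the induced arrays, against 11.71 and 11.64 in the controls. It differed by 0.15 (SE 0.038, adjusted p = 0.472), against -0.09 in the first, and both end in _s_at, used for probes shared by several transcripts. In HNRNPDL sets gave 0.21 (SE 0.067, adjusted p = 0.472) and -0.12 (SE 0.048, adjusted p = 0.490). In these 3 genes the direction of the gene therefore depended on the probe set. Which transcripts each set reads was not examined here.

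**Figure D3:**
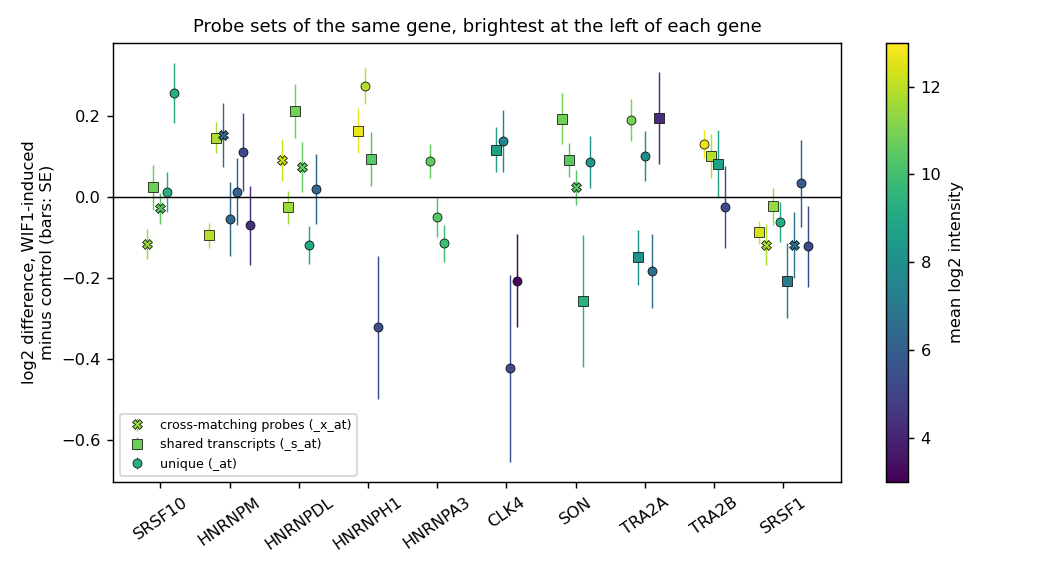
Log2 difference (vertical axis, WIF1-induced minus control, bars are the SE of the limma fit) of every probe set of 10 members chosen after their values were seen, coloured by mean log2 intensity and marked by suffix. SRSF10, HNRNPM and HNRNPDL have sets past an unadjusted p of 0.05 on both sides of 0, while 7 of the 8 sets of SRSF1 lie below it.

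In 5 of the 147 member probe sets the second induced array lay more than 0.3 below each of the other 3 arrays (3.40%, against 1.65% of all probe sets). The same was seen in 1 set for the first induced array, in 1 set for the second control and in 0 for the first control. The 5 sets belong to SON, SRRM1, CLK4, HNRNPR and HNRNPU, and none is the brightest of its gene. The SON set stood at 9.57 and 9.02 in the induced arrays, against 9.57 and 9.54 in the controls, whereas in the brightest SON set the second induced array was the highest. The CLK4 set stood at 5.53 and 4.78 in the induced arrays, against 5.58 and 5.59 in the controls. The HNRNPR set stood at 10.95 and 10.63 in the induced arrays, against 10.99 and 10.95 in the controls.

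Some control probe sets at both ends of a transcript also set that array apart. The 3' minus 5' log2 difference of the spiked-in dap transcript was 2.66 and 2.93 in the induced arrays, against 2.59 and 2.69 in the controls, and that of ACTB was 0.03 and 0.11 in the induced arrays, against -0.04 and 0.02 in the controls. For GAPDH it was -0.04 and -0.05 in the induced arrays, against -0.07 and -0.07 in the controls. The part of this shift in the members' values was not tested. Without the second induced array 1 member was higher and 0 lower before adjustment, at a p under 0.05, where 2.87% and 2.26% of all genes stood. The median of the SR-related genes was then 0.10.

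**Figure D4:**
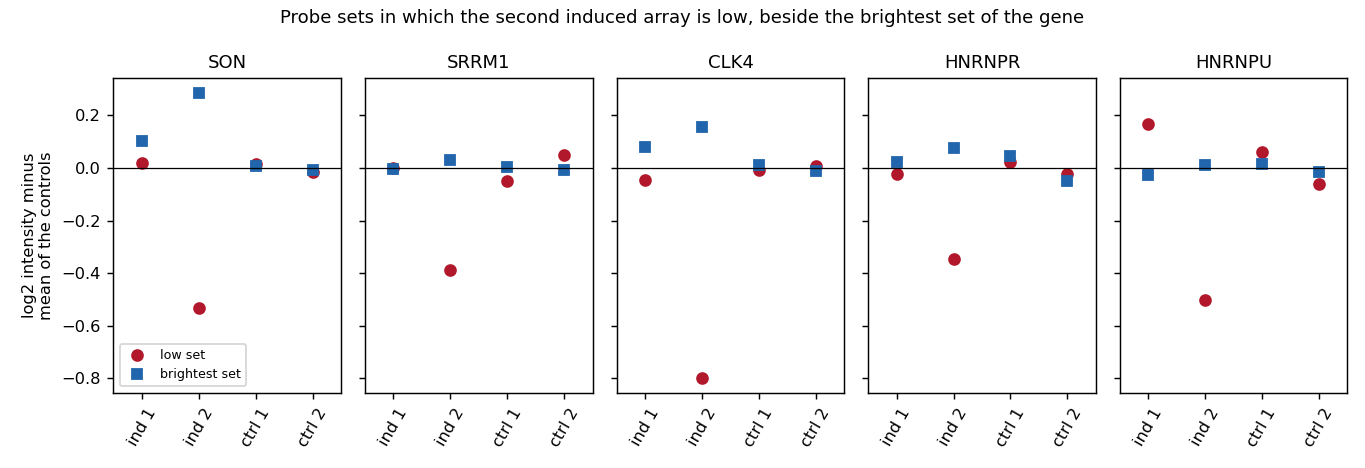
Log2 intensity minus the mean of the controls (vertical axis) in the 4 arrays (horizontal axis) for the 5 member probe sets in which the second induced array was low (red points), beside the brightest probe set of the same gene (blue squares). The second induced array lies at least 0.3 below the other arrays in the red points and at or above the control mean in the blue squares.

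Other splicing genes were not called either, with 0 of them at an adjusted p under 0.05 in limma. In the core spliceosome 2 of 32 genes were higher and 2 lower before adjustment, at a p under 0.05, with a median of 0.01. These shares, each 6.25%, stood beside 6.48% and 4.73% of all genes. SNRPA1, a U2 snRNP protein, was at 11.62 and 11.67 in the induced arrays, against 11.53 and 11.51 in the controls, and its 3 other sets gave -0.06 to -0.02. U2AF2, which binds the polypyrimidine tract, was at 10.09 and 10.22 in the induced arrays, against 9.922 and 10.003 in the controls, and its 3 other sets gave -0.11 to 0.08. The groups did not overlap in either gene.

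Of 27 other measured splicing regulators 4 were higher and 0 lower, with a median of 0.02. The higher share of 14.8% lay near the 14.1% of genes with a mean of at least 10, of which 6.59% were lower. Of all genes 6.48% were higher and 4.73% lower. PTBP2, the neuronal paralogue of the splicing repressor PTBP1, was at 9.19 and 9.24 in the induced arrays, against 8.88 and 8.82 in the controls. It differed by 0.36 (SE 0.052, adjusted p = 0.386), more than any member by its brightest set, and its other set gave 0.20. PTBP1 differed by -0.06 (SE 0.031, adjusted p = 0.567). MBNL2 was 0.18 higher in its brightest set, but its 4 other sets gave -0.32 to -0.08.

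Among 10 measured genes of SR protein transport, phosphatases and further kinases 2 were higher and 1 lower. For this list and the next, 6.48% of all genes were higher and 4.73% lower. The catalytic subunits of protein phosphatase 1 were divided, with PPP1CB at 0.16 (SE 0.051), PPP1CC at 0.10 (SE 0.035) and PPP1CA at -0.10 (SE 0.038). The transport receptor TNPO3, which carries SR proteins into the nucleus, differed by 0.03 (SE 0.10). Of 9 measured genes of the exon junction complex and of nonsense-mediated decay, the pathway that removes transcripts with early stop codons, 2 were higher and 1 lower. MAGOHB was at 0.24 in its brightest set and at -0.26 in the other, and UPF2 was at 0.17 (SE 0.070).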

How the data were processed

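RNA of 4 LN-229 cultures was labelled with biotin and hybridised to 1 array each, per the labels. The authors deposited log2 intensities for each probe set. Per the submitters' processing notes they used RMA from affy (version not given in the sources used here). RMA makes array distributions equal, so a change shared by most genes would not be seen. The 62 control probe sets among 54675 rows did not enter the tests. The platform annotation gives 41091 probe sets 1 symbol, 1801 several and 11721 none. Each gene was represented by its probe set of highest mean over the arrays.

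Groups came from the titles. Differences were fitted with limma 3.58.1 in R 4.3.3 (lmFit, eBayes with an intensity trend, 2-sided) on all 54613 probe sets with Benjamini-Hochberg adjustment at 0.05, on 6.27 moderated degrees of freedom. The fit was tested on simulated data. An exact permutation test of 2 against 2 arrays cannot go below 0.333. The members, lists and motifs were chosen with earlier results of these data known. Named genes were all members, with array values where the unadjusted p was under 0.05 and for up to 4 members of smallest p per family, and the 2 genes of smallest p at or above the median intensity in each of 4 other splicing lists. PTBP1, PPP1CA, TNPO3 and single probe sets were chosen after their values were seen. Alternatives were a replicate block, other spread models, filters, normalisations and probe set choices, a threshold of 0.1, and leaving out each array. A group left with 1 array was taken to vary as the other group does. Counting probe sets with several symbols was added after seeing the data.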

Additional observations from a re-analysis of the deposited data

How the results depend on the processing

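No member probe set was called under any alternative, and 226 values of named members kept their direction and side of the threshold, with 9 reversed. With several symbols counted, no count over all members and no family median moved enough to be listed below. A replicate block left every family median and the counts without overlap as they were. Of the hnRNPs 1 was then higher at an unadjusted p under 0.05 in limma, against 3. The block had 5 members higher and 3 lower (4.68% and 3.47% of all genes), with 0 probe sets called, and the samples share only a number (same-numbered deviations correlated at 0.06).

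Counts over all members or all probe sets and medians that moved were as follows, and the cause was not tested. Counts by family, some of which also moved, are left out. The counts stand against 7 higher and 3 lower members at an unadjusted p under 0.05, and 9 and 8 without overlap. Genes without overlap stay so when an array is left out, and others can join them. The counts without overlap after leaving out an array therefore cannot be compared with 9 and 8. Their shares over all genes are not given here. Among all probe sets 2 were called with robust estimation, 5 once each array was centred on its median, 11 after cyclic loess, 9 genes with probe sets averaged, 2 without sets ending in _x_at or _s_at, and 2 at the threshold of 0.1. Without the trend 1 member was higher and 0 lower (4.37% and 3.38% of all genes). After centring 0 were lower (2.79% of all genes) and 4 were lower without overlap, with medians of 0.00642 for SR proteins and 0.0339 for hnRNPs. Cyclic loess gave -0.0389 and -0.0114 for these families. Averaging gave 1 higher and 1 lower member (5.10% and 5.25% of all genes) and medians of 0.0282 for SR-related proteins and -0.0484 for kinases. Without sets ending in _x_at or _s_at, which left 29 members, 3 were higher (6.02% of all genes), with medians of -0.0514 for SR proteins, 0.14 for kinases and -0.0117 for hnRNPs. Leaving out each array gave 1 to 9 higher and 0 to 2 lower members, 11 to 20 higher and 11 to 15 lower without overlap, and kinase medians from -0.0128 to 0.0657. The 1 higher member was left without the second induced array, and 2 without the second control.

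Reversed on averaging were SRSF10 at 0.0303, HNRNPM at 0.0294, SRSF7 at 0.0556 and CLK4 at -0.0933. Without sets ending in _x_at or _s_at it was SRSF10 at 0.012, HNRNPA2B1 at -0.0141, HNRNPD at -0.042 and HNRNPDL at -0.12. SRRM2 ran from -0.314 to 0.026 on leaving out each array, reversed without the second induced. Adjusted p values of named members ran from 0.261 to 0.996 over all alternatives. The number of arrays and dim signals limit precision.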
